A study of Mus musculus with 4 samples.

Results

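Regions of open chromatin that marked mature Ccr7+ dendritic cells (DCs) of the mouse liver before any diet were followed into a separate library taken on day 5 of cholestatic injury. The regions, called mature DC peaks here, were chosen by their accessibility at day 0 (D0) in mature nuclei against nuclei without the marker RNA. Nuclei with at least 1000 UMIs (unique molecular identifiers, that is counted RNA molecules) were called mature when they held 4 or more UMIs of Fscn1, Cacnb3, Il4i1, Socs2 and Ccr7 together and at most 1 UMI of Txk, Ncr1 and Cd3e. Nuclei with 0 UMIs of the 5 mature DC genes were called no-marker nuclei. A peak was a mature DC peak when it held 30 or more transposition cut sites in the mature nuclei and its accessibility there, in cut sites scaled to CPM (counts per 1e6 in peaks), was at least 3 times the CPM of the no-marker nuclei plus 0.5. This chose 1149 of 142799 peaks, and 47808 peaks had the 30 cut sites needed, of which the rule called 2.40%. The D0 contrast of mature with no-marker nuclei chose the regions, so its values are given as description only.

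The data are 10x Multiome profiles, which count RNA and open chromatin, the latter by ATAC-seq, in each nucleus at once. All mice were C57BL/6J, and the labels name no engineered allele. Liver cells were sorted as live CD45+ CD64- CD11c+ cells, and nuclei were taken without treatment (D0) or after 5 days of chow with 0.1% DDC (3,5-diethoxycarbonyl-1,4-dihydrocollidine, a compound that injures bile ducts; D5). Each day is 1 library, the number of mice in it is not given in the sources used here, and day and library cannot be told apart. No test over replicates was possible, and no interval below covers the spread between mice or libraries. All are 95% intervals, of counting error for levels and ratios and over the regions counted for shares and medians of regions, and regions of 1 library are not replicates.

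Mature DCs, also called migratory or regulatory mature DCs, are conventional DCs that have taken up antigen or received an inflammatory signal and changed their programme. They raise Ccr7, the receptor for the lymphatic chemokines Ccl19 and Ccl21, leave the tissue for the draining lymph node and present antigen to T cells there, with costimulatory and inhibitory ligands on their surface. Fascin, the product of Fscn1, bundles the actin of their long processes, and NFkB factors with RelB among them drive much of the change. Both cDC1 and cDC2, the main types of conventional DC, can mature in this way. In most tissues promoters are open in many cell types, whereas distal elements such as enhancers differ more between types.

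The mature gate held 511 nuclei at D0, 3.58% of those kept, with 6430212 cut sites, and 1963 nuclei at D5, 7.37% of those kept, with 21476594 cut sites. The no-marker nuclei numbered 11230 and 18677. At D5 the mature nuclei had a median of 3513 UMIs and 7991 cut sites, against 2727 UMIs and 7394 cut sites in the no-marker nuclei, so the gate takes in more of the deeper nuclei. The label was checked at D5 with genes that mark mature DCs but were not used for the gate. The list was chosen with earlier results of these data known and is not independent evidence. Of its 30 genes 29 had enough UMIs to be compared, and 25 of them were 2-fold or more higher in mature nuclei with an interval above equality, while 0 were lower. The shares among all 16711 genes compared were 5.10% and 3.30%. The gene left out was Ccl19, a ligand of Ccr7, with 1 UMI in the mature nuclei. Markers of other types were also present. At D5, 33.6% of the mature nuclei held 2 or more UMIs of cDC2 genes, 23.9% of cDC1 genes, 14.4% of plasmacytoid DC (pDC) genes, 6.57% of nonclassical monocyte genes, 4.69% of macrophage genes and 3.87% of NK and T cell genes. Over all kept nuclei at D5 these shares were 41.7%, 26.8%, 18.4%, 3.55%, 4.57% and 12.4% in the same order. Only the nonclassical monocyte share was well above that of all kept nuclei. Doublets were not removed, and their part in the results was not tested. Results without mature nuclei that held 2 or more UMIs of another type are given where they bear on a value. The D0 and D5 libraries shared 591 cell barcodes.

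By the annotated starts used here, a mature DC peak was rarely at a promoter. Only 54 of the 1149 (4.70%, 3.55 to 6.09) lay within 1 kb of an annotated start site, against 30.5% of the peaks with 30 or more cut sites in mature nuclei. The median distance to the nearest start site was 17232 bases, against 6249 bases for those peaks, and 70 mature DC peaks (6.09%) were more than 100 kb away. The centre of 593 (51.6%) lay inside a protein-coding gene, close to the 58.1% of the peaks they were drawn from. Their median width of 873 bases was also that of all D0 peaks. Starts were taken at the ends of each gene's annotated range, so other starts can be missed. The peak over the RefSeq start of Aebp2, given below, is 1630 bases away by this measure.

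Reference sequence was at hand for the mature DC peaks that covered a promoter, and a few of these are printed. In RefSeq, windows from 250 bases before to 50 bases after a gene's start were given for the build GRCm38.p6, and 24 windows of 19 genes overlapped 19 mature DC peaks by at least 150 bases. The letters GGNNTTTCC, a core of the sites that NFkB factors bind, were present on either strand in 8 of the 24 windows (33.3%), against 6.25% of the 12169 windows over peaks with 30 or more cut sites in mature nuclei and 5.83% of all 32817 windows. The 8 windows belong to 6 genes, since several genes have overlapping windows. The median GC content was 50% in the 24 windows and 62% in the 12169. The AP-1 letters TGANTCA were in 4 windows (16.7%, against 4.76%), with overlapping windows of Ccdc33 among them. The interferon response letters GAAANNGAA were in 2 (8.33%, against 6.79%) and the PU.1 letters GAGGAAGT in 0, against 3.82%. The SP letters GGGGCGGGG were in 1 (4.17%, against 23.2%), CACCTG in 2 (8.33%, against 17.5%) and CAGCTG in 5 (20.8%, against 14.4%). Letters of STAT, RUNX, CEBP, CTCF, KLF and of ETS with IRF were also searched, and each was in at most 1 window. A match is a description of the letters and not a measured binding site.

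The following 7 windows are printed 5′ to 3′ in the direction of the gene. The first 4 hold the NFkB letters, which stand in capitals, and the other 3 hold none. The 7 were picked after their values were seen, the last 3 for higher RNA in mature nuclei, and do not stand for all 24.
Aebp2 (chr6:140624659-140624958, plus strand): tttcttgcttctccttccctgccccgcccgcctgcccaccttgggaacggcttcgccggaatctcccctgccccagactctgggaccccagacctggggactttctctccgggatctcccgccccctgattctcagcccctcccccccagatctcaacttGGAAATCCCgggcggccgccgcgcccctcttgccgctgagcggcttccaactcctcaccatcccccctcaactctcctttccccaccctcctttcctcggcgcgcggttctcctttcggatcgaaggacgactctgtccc
Il1rn (chr2:24345041-24345340, plus strand): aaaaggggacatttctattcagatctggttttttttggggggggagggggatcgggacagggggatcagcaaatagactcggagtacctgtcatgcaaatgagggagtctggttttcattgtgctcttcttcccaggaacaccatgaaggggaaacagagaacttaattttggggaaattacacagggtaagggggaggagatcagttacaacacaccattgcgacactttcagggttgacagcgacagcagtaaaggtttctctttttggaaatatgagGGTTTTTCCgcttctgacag
Gm10851 (chr2:11521392-11521691, plus strand): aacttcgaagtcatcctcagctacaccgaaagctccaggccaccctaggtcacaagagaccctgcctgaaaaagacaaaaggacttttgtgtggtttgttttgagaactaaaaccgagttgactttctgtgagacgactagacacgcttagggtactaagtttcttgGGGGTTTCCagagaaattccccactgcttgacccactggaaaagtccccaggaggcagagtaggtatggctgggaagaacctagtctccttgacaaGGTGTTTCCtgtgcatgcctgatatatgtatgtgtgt
Ccdc33 (chr9:58102176-58102475, minus strand): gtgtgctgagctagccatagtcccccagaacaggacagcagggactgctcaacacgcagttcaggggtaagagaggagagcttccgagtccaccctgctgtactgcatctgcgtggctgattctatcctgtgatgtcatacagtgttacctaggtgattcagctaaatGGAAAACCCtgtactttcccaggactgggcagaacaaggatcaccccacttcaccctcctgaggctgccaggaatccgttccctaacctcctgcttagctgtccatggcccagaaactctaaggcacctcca
Pcgf5 (chr19:36378817-36379116, plus strand): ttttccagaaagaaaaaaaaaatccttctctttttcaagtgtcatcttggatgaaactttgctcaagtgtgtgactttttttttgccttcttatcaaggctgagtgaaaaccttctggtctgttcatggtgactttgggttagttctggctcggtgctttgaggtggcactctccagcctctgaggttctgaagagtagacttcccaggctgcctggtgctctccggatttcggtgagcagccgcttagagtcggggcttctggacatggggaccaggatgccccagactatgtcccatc
Flrt3 (chr2:140671427-140671726, minus strand): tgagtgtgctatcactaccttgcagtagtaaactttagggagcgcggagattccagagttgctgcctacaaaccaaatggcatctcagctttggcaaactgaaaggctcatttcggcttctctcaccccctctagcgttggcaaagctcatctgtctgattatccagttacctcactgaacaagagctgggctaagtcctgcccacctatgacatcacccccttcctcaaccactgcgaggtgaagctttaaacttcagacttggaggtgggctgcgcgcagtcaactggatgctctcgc
Apol7c (chr15:77533266-77533565, minus strand): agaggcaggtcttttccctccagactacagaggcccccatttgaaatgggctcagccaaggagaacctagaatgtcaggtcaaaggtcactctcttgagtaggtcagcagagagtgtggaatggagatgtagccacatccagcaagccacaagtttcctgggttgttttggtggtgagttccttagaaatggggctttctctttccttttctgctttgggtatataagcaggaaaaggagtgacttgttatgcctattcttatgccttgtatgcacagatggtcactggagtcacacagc

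Aebp2, a cofactor of Polycomb repression, has one such site in its window, and the mature DC peak over it, chr6:140624534-140625252, was among the 10 with the most cut sites at D0. At D5 it had 32.2 CPM in mature nuclei, 14.0 CPM in no-marker nuclei and 24.6 CPM in the cDC2 gate, and Aebp2 RNA was at 248 and 88.4 CPM in mature and no-marker nuclei. Gm10851, a gene of unknown function, has a pair of sites, and its peak had 17.1 CPM in mature against 1.09 CPM in no-marker nuclei, a log2 ratio of 3.98 (3.59 to 4.37). Log2 ratios of single regions, here and below, are taken without the added 0.5 CPM unless stated. Its RNA was at 33.0 and 6.58 CPM. Il1rn encodes the antagonist of the interleukin-1 receptor. Its peak had 7.73 CPM in mature nuclei, 5.42 CPM in the cDC2 gate and 3.12 CPM in no-marker nuclei. Il1rn RNA was at 20.7 and 6.58 CPM in mature and no-marker nuclei. At Ccdc33 the peak stood at 5.21 CPM against 0.127 CPM, while its RNA had 0.117 CPM in mature nuclei, so the open promoter went with almost no counted RNA. Among the windows without the letters, the peak at Pcgf5, a Polycomb subunit, had 13.6 and 2.50 CPM with RNA at 412 and 94.1 CPM. Flrt3, an adhesion and guidance receptor, had 7.03 and 1.72 CPM with RNA at 29.9 and 0.875 CPM. Apol7c, an apolipoprotein L family gene of DCs, had 1.96 and 0.100 CPM with RNA at 87.6 and 1.11 CPM. Retreg1, which acts in turnover of the endoplasmic reticulum and whose window is not shown, went the other way in RNA, with 9.17 and 3.56 CPM at its peak but RNA at 114 and 172 CPM, a log2 ratio of -0.60 (-0.69 to -0.50).

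The first question was whether regions chosen at D0 stood out again at D5, in nuclei that had no part in the choice. Of the 1149 mature DC peaks, 1136 (98.9%) were overlapped by a peak called in the D5 library on its own. This was so for 89.2% of all D0 peaks but for 47426 of the 47808 with 30 or more cut sites in mature nuclei, so the mature DC peaks did not stand out from the set they were drawn from. In these 1136 the median log2 ratio of mature over no-marker nuclei at D5 was 1.70 (1.65 to 1.74 over the peaks, with 0.5 CPM added to both), while the median over all 127416 shared peaks was -0.06. The tenth and ninetieth percentiles were 1.03 and 2.64, against -0.55 and 0.42 for all shared peaks. The ratio of 1127 peaks lay above equality beyond the counting interval, where 9.78% of all shared peaks did, and 0 lay below it, where 11.6% of all shared peaks did. The full D0 rule, with its 3-fold threshold, was met again at D5 by 575 of the 1136 (50.6%, 47.7 to 53.6), against 0.582% of all shared peaks. Of these 127416 peaks, 86776 held the 30 cut sites in mature nuclei at D5 that the rule needs, and the others could not meet it. The 9.78% and 11.6% likewise run over peaks of all depths. Read from the other side, 741 shared peaks met the rule at D5 and 575 of them (77.6%) were mature DC peaks. The median ratio at D0, which the choice raised, was 2.08.

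**Figure D1:**
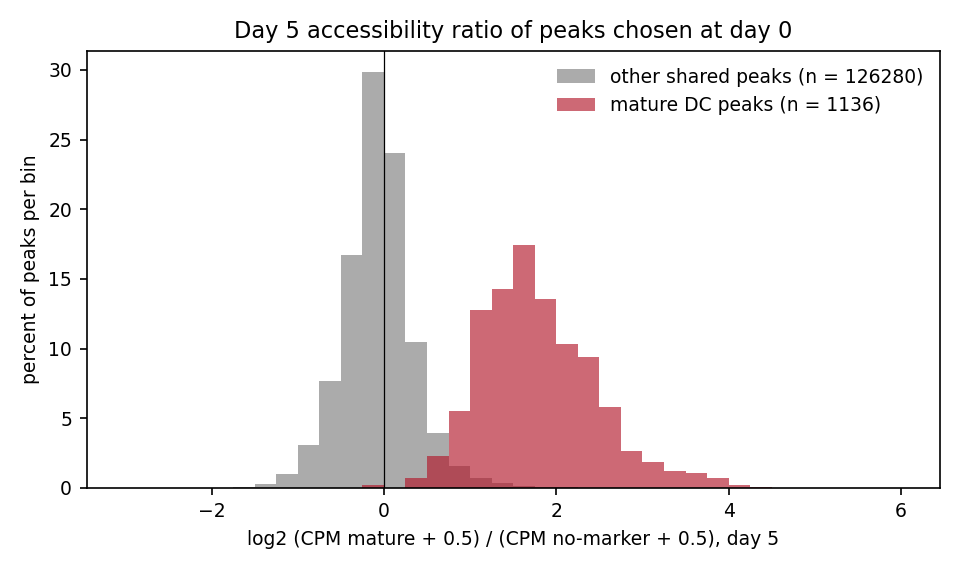
Histogram of the D5 log2 ratio of accessibility in mature over no-marker nuclei (x axis, CPM with 0.5 added to both) as percent of peaks per bin (y axis). The 1136 mature DC peaks chosen at D0 (red) centre on 1.70 and the other 126280 shared peaks (grey) centre near 0.

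How strongly a region stood out at D0 went with how it stood at D5. Of the 574 mature DC peaks with a D0 ratio of 3 to 4, those with a D5 peak met the rule again in 22.3%, against 69.5% of the 376 with a ratio of 4 to 6 and 97.0% of the 199 with a ratio of 6 or more. Depth at D0 showed no such order. The share was 43.8% for peaks with 30 to 39 cut sites, 55.7% for 40 to 59, 54.3% for 60 to 99 and 43.7% for 100 or more. At the threshold itself the 3 regions just inside had D0 ratios of 3.0004 to 3.0011 and the 3 just outside 2.995 to 2.999, and their D5 log2 ratios were 1.07 to 1.499 and 1.11 to 1.498. The D5 ratios on either side of the threshold thus covered the same range. The 13 mature DC peaks without a D5 peak had 30 to 117 cut sites at D0.

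In the D5 gates of other cell types the mature DC peaks were mostly low but not closed. Their median accessibility was 7.92 CPM in mature nuclei, 2.22 CPM in the cDC2 gate, 1.95 CPM in the macrophage gate, 1.75 CPM in no-marker nuclei, 1.55 CPM in the cDC1 gate, 0.919 CPM in the NK and T cell gate and 0.859 CPM in the pDC gate. All shared peaks had medians of 2.56, 2.19, 1.95, 2.62, 2.70, 1.72 and 2.58 CPM in the same order. In the cDC2 and macrophage gates the median of the mature DC peaks was thus close to that of all shared peaks, and in the pDC gate it was lower. The shared peaks are of all depths, whereas mature DC peaks needed a minimum of cut sites in mature nuclei at D0. Whether mature DC peaks were as open in these gates as peaks of like depth was not tested. The macrophage gate held 393 nuclei, and 180 of the regions had 0 cut sites there. The nonclassical monocyte gate held 56 nuclei, and 828 regions had 0, so a single region there is decided by 1 or a few fragments.

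Counted region by region, the mature level was at least 2 times that of the cDC2 gate (plus 0.5 CPM) in 746 of 1133 regions with 30 or more cut sites at D5 (65.8%), against 3.56% of all such shared peaks. The same share was 83.6% for the cDC1 gate (against 4.96%), 96.2% for the pDC gate (16.0%), 92.1% for the NK and T cell gate (31.5%), 76.2% for the macrophage gate (14.2%) and 79.8% for the nonclassical monocyte gate (51.1%). All 6 gates were passed together by 455 regions (40.2%, 37.3 to 43.1), against 0.725% of all such peaks. Without the nonclassical monocyte gate the count was 523 (46.2%). With all 6 gates it was 485 of 1224 (39.6%) when peaks were chosen and measured without mature nuclei that held 2 or more UMIs of another type. The nonclassical monocyte gate was left out of the ranking that follows. Among the other 5 gates, the most open next to the mature nuclei was cDC2 in 478 of the 1136 regions (42.1%), macrophage in 273 (24.0%), cDC1 in 208 (18.3%), NK and T cell in 122 (10.7%) and pDC in 55 (4.84%). Over all shared peaks these shares were 11.1%, 18.4%, 23.4%, 21.9% and 25.2%. Among these 5 gates cDC2 thus came first most often at these regions, and pDC far less often than elsewhere. In 66 regions (5.81%) at least 1 of these 5 gates was at or above the mature level, most often the macrophage gate with 37. The same share over all shared peaks was not counted, and the macrophage gate held only 393 nuclei.

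The regions were also read one nucleus at a time. In mature nuclei with 1000 or more cut sites at D5, the median nucleus had 1.17% of its cut sites in mature DC peaks (quartiles 0.701 and 1.88, 1800 nuclei). The median was 0.391% in the cDC2 gate, 0.299% in the macrophage gate, 0.252% in no-marker nuclei, 0.242% in the nonclassical monocyte gate, 0.228% in the cDC1 gate, 0.144% in the NK and T cell gate and 0.109% in the pDC gate. Of 3384 nuclei of the cDC2 gate, 17 (0.502%) reached the mature median, as did 1 of 2036 of the cDC1 gate and 65 of 16839 no-marker nuclei. At D0, where the peaks were chosen, the mature median was 1.49% and the order of the gates was cDC2, macrophage, nonclassical monocyte, cDC1, no-marker, pDC and NK and T cell.

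**Figure D2:**
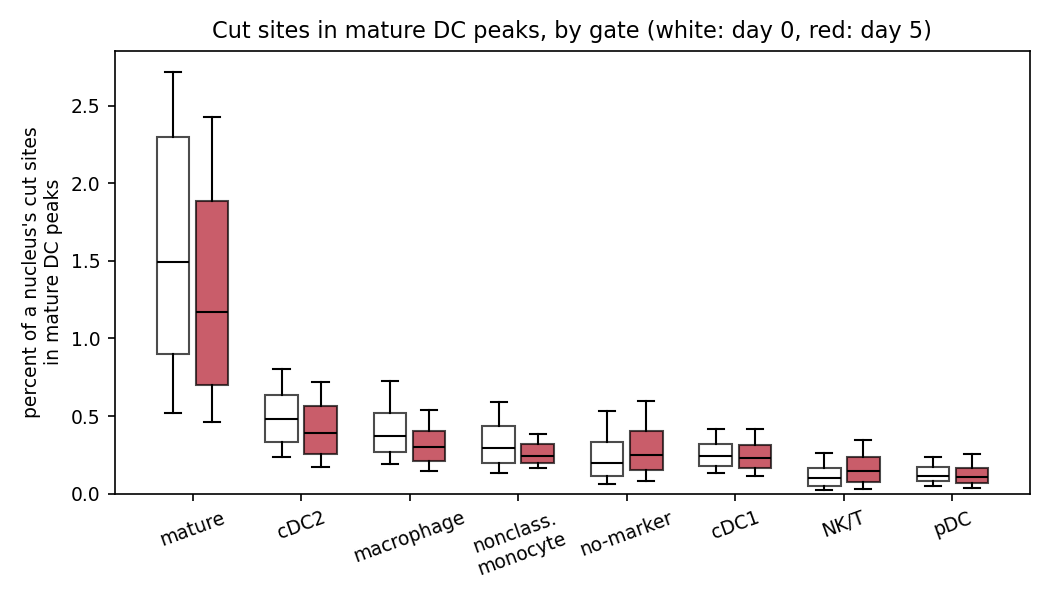
Percent of a nucleus's cut sites that fell in mature DC peaks (y axis) by gate (x axis) at D0 (white) and D5 (red). Boxes show the quartiles and the median, whiskers the tenth and ninetieth percentiles. The mature median is 1.17% at D5 and that of the cDC2 gate 0.391%.

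The share climbed with the RNA of the gate genes, also below the threshold, among nuclei with at most 1 UMI of the NK and T cell genes Txk, Ncr1 and Cd3e. At D5 the median was 0.260% in nuclei with 0 marker UMIs, 0.326% with 1, 0.442% with 2, 0.574% with 3, 0.665% with 4 to 5, 0.994% with 6 to 9 and 1.54% with 10 or more. Nuclei just under the gate, with 3 UMIs, numbered 451, and those just over it, with 4 to 5, numbered 458, so accessibility did not jump at the threshold. Mature nuclei with fewer than 2 UMIs of any other type had a higher median (1.85%, 772 nuclei) than all mature nuclei, and those with 2 or more UMIs of cDC1 and 0 of cDC2 genes (cDC1 type, 0.990%, 144 nuclei) or with 2 or more of cDC2 and 0 of cDC1 genes (cDC2 type, 0.914%, 302 nuclei) had lower ones. The part of doublets in these lower shares was not tested.

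**Figure D3:**
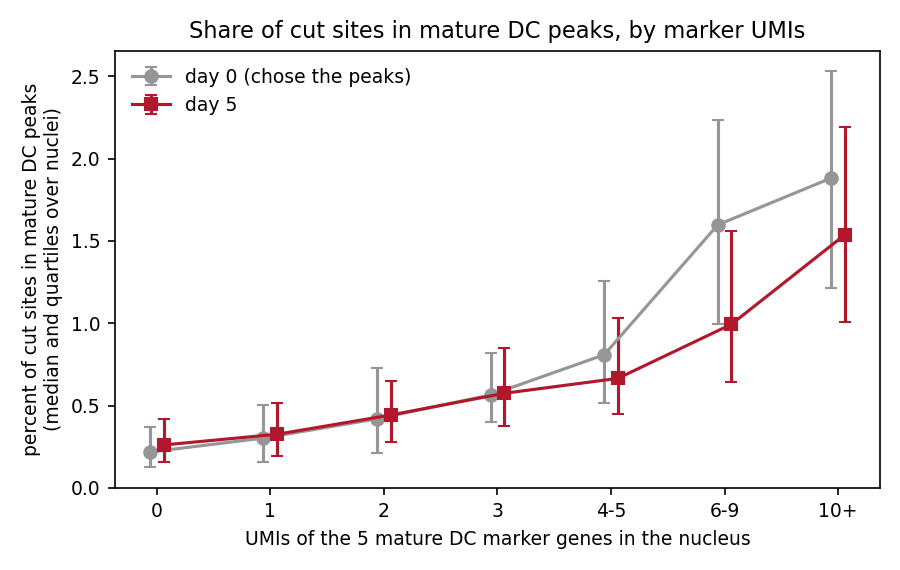
Percent of cut sites in mature DC peaks (y axis, median with quartiles over nuclei) against the UMIs of the 5 mature DC genes in the nucleus (x axis), for D0 (grey, which chose the peaks) and D5 (red). The D5 median climbs from 0.260% at 0 UMIs to 1.54% at 10 or more.

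Mature nuclei of cDC1 type and of cDC2 type, as defined above, could be compared at 736 of the regions with 30 or more cut sites in both together. Most did not differ by 2-fold or more with a counting interval that excluded equality. The cDC1 type held 156 nuclei with 1793693 cut sites and the cDC2 type 326 with 3944004. A region with few cut sites could therefore differ by 2-fold and not be called, so an uncalled region is not shown to be equal in the types. 30 regions (4.08%) were higher in the cDC1 type and 18 (2.45%) in the cDC2 type, against 2.48% and 2.69% of all such shared peaks, so the share for cDC2 is that of the background. The region over the start of Mab21l3 had 28.4 CPM in mature nuclei of cDC1 type and 8.87 CPM in those of cDC2 type, and the same order, 14.3 and 1.40 CPM, in the cDC1 and cDC2 gates. The region nearest to Txndc11 stood at 15.1 and 6.09 CPM in the mature types and at 8.05 and 0.588 CPM in the gates. In the other direction, a region 872 bases from a start of Il1rn had 3.35 and 11.4 CPM, with 2.05 and 6.53 CPM in the gates, and a region near Clec4a4, a C-type lectin gene of cDC2, had 8.92 and 19.8 CPM, with 2.90 and 10.2 CPM. Clec4a4 is one of the cDC2 genes whose UMIs defined both the cDC2 type and the cDC2 gate. Its region is therefore no independent example. Of the 48 regions, 36 had the same order in the cDC1 and cDC2 gates as in the mature types, 20 of the 30 and 16 of the 18. The other 12 did not, such as one near Col15a1 with 16.2 and 6.09 CPM in the mature types and 1.45 and 5.75 CPM in the gates, and one near Basp1 with 7.81 and 20.5 CPM against 12.9 and 10.8 CPM. The order in the gates is given without regard to its counting error. Mature types and gates were defined by UMIs of the same cDC1 and cDC2 genes, so the order in one is not independent of that in the other at any of the 48 regions. The part of doublets in it was not tested. How often all 736 regions had either order in the gates was not counted. Over the 1136 mature DC peaks with a D5 peak, the median was higher in the cDC2 gate (2.22 CPM) than in the cDC1 gate (1.55 CPM).

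Of the 5 genes that defined the gate, 3 had mature DC peaks within 100 kb, and the peaks over the start sites of all 5 missed the rule. Ccr7 had 5 such peaks within 25 kb. At D5 the most open of these, chr11:99164651-99165512, 9574 bases from the start, had 39.997 CPM (36.3 to 44.0) in mature nuclei, 24.1 CPM in the macrophage gate, 21.0 CPM in the cDC2 gate, 11.5 CPM in no-marker nuclei, 7.40 CPM in the cDC1 gate and 3.87 CPM in the pDC gate. It was thus open to a lesser degree in the macrophage and cDC2 gates. The region on the other side, chr11:99142281-99143156, had 24.5 CPM in mature nuclei and 2.60 to 4.25 CPM in the cDC1, cDC2, pDC and macrophage gates, a log2 ratio over no-marker nuclei of 2.79 (2.54 to 3.04), and the mature level was more than 2 times every gate. The peak over the Ccr7 start site had 38.7 CPM in mature and 12.4 CPM in no-marker nuclei at D5, a log2 ratio of 1.64 (1.47 to 1.81), and missed the D0 rule with 32.3 against 10.8 CPM.

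At Fscn1 3 mature DC peaks were nearest. Chr5:142949257-142950135 had 9.13 CPM in mature and 0.287 CPM in no-marker nuclei, a log2 ratio of 4.99 (4.31 to 5.74), and chr5:142957033-142957931 had 13.0 and 1.37 CPM, a log2 ratio of 3.24 (2.86 to 3.62). The third, chr5:142974475-142975413, had 10.2 and 4.26 CPM, a log2 ratio of 1.26 (0.94 to 1.58), and did not meet the rule at D5. The Fscn1 start site was at 14.7 and 5.53 CPM. Cacnb3, a calcium channel subunit, had a region 5406 bases from its start at 27.6 and 1.43 CPM, a log2 ratio of 4.27 (3.95 to 4.60), and another 308 bases away at 31.3 and 10.1 CPM, while the peak over the start was at 11.7 and 8.68 CPM. Il4i1, which encodes an amino acid oxidase, and Socs2, a damper of cytokine receptor signals, had no mature DC peak within 100 kb. The peak over the Il4i1 start, which also covers that of Nup62, was at 106 CPM in mature and 107 CPM in no-marker nuclei, with a log2 interval of -0.11 to 0.07, although its RNA was at 471 CPM in mature nuclei and, by the gate, at 0 in the others. The Socs2 start peak was at 29.6 and 16.3 CPM.

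**Figure D4:**
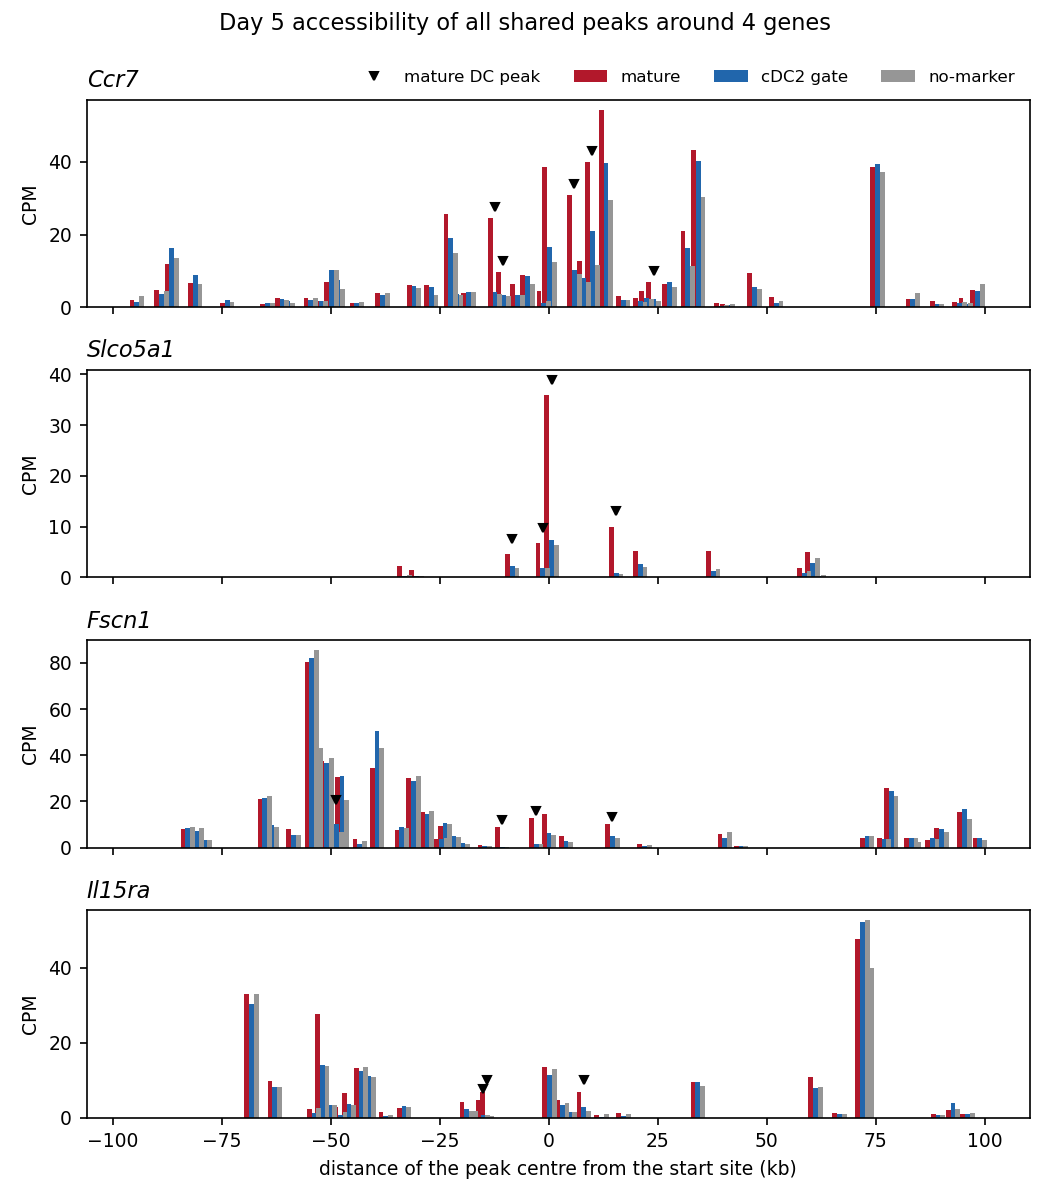
Accessibility at D5 (y axis, CPM) of all shared peaks within 100 kb of the start sites of Ccr7, Slco5a1, Fscn1 and Il15ra, by distance of the peak centre from the middle of the annotated starts (x axis, kb, bars of fixed width set side by side). Red bars are mature nuclei, blue the cDC2 gate and grey no-marker nuclei, and triangles mark mature DC peaks. Several mature DC peaks flank Ccr7, where the most open one is at 39.997 CPM, and the tallest one at Slco5a1 is at 35.9 CPM.

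The region with the most cut sites in mature nuclei at D0 (267) was chr1:12991952-12992881, which covers a start site of Slco5a1, a gene of the organic anion transporter family. It had 41.5 CPM in mature and 6.25 CPM in no-marker nuclei at D0. At D5 it had 35.9 CPM (32.4 to 39.7) in mature nuclei, 13.1 CPM in the NK and T cell gate, 9.11 CPM in the macrophage gate, 7.32 CPM in the cDC2 gate, 6.401 CPM in no-marker nuclei, 3.69 CPM in the pDC gate and 3.601 CPM in the cDC1 gate. A cut site was found in 17.8% of mature and 2.66% of no-marker nuclei. The gene had 4 mature DC peaks in all, and the one 14197 bases away had 10.01 CPM in mature and 0.674 CPM in no-marker nuclei. Slco5a1 RNA was at 67.8 CPM in mature and 0.370 CPM in no-marker nuclei.

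The other regions most open at D0 were spread over genes of signalling and of other kinds. A region inside Plxnc1, a semaphorin receptor, had 33.5 CPM in mature and 6.007 CPM in no-marker nuclei at D5. A region in Adora2a, which encodes an adenosine receptor that dampens immune cells, had 29.1 and 5.88 CPM, and the RNA of that gene was at 49.1 and 7.19 CPM. Regions near Tnfsf4, Crlf3 and Hs6st1 and one inside Ubash3b had 33.7 to 37.8 CPM in mature nuclei and 13.5 to 14.1 CPM in no-marker nuclei. In these 4 the cDC2 gate had 21.6 to 23.2 CPM and the cDC1 gate 5.30 to 11.004 CPM, so they were shared in part with cDC2. The macrophage gate had 23.7 CPM at the Ubash3b region, 19.5 CPM near Crlf3, 13.7 CPM near Hs6st1 and 8.78 CPM near Tnfsf4.

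The 10 regions with the highest D5 ratio, ranked with 0.5 CPM added to both groups, had 9.68 to 27.6 CPM in mature nuclei, above the median of all mature DC peaks. The highest ratio on that scale, a log2 of 4.32, was at chr9:7670179-7671023 inside Mmp20 and 21067 bases from Mmp7, a metalloprotease gene, with 11.9 CPM in mature and 0.120 CPM in no-marker nuclei and 0 in the cDC1 gate. Without the added 0.5 CPM its log2 ratio was 6.63 (5.66 to 7.79). Mmp7 RNA was at 3.28 and 0.101 CPM. Chr1:39430495-39431346 in Tbc1d8 had 25.9 and 1.36 CPM in mature and no-marker nuclei. A region 63796 bases from Slc7a11, which imports cystine, had 12.9 and 0.441 CPM, and RNA of Slc7a11 was at 128 and 21.4 CPM. Others of the 10 highest were the Cacnb3 region above, regions near Hecw2 and Gm8013, one inside Rad51b and ones whose nearest start sites, B430305J03Rik and 1700012I11Rik, were 108090 and 487201 bases away.

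At the other end, 5 regions had the lowest D5 ratios, again ranked with 0.5 CPM added, and for each of them the interval included equality. Chr17:15651593-15652446 had 1.82 CPM in mature and 1.93 CPM in no-marker nuclei at D5, after 5.91 and 1.42 CPM at D0. A region 5733 bases from Gda, a purine enzyme gene, had 3.86 and 3.93 CPM at D5, with 6.83 CPM in the cDC2 gate and 10.1 CPM in the macrophage gate. The other 3, near Osbpl8, Pde6a and Gm29341, had 0.885 to 2.33 CPM in mature nuclei.

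Of the 1149 mature DC peaks, 403 had another within 50 kb, and 51 runs of 3 or more had gaps of at most 50 kb. How often other sets of peaks of this number do so was not tested. The longest run had 6 and belonged to Zfp366, a zinc finger regulator of DCs. Its regions had 5.68 to 21.3 CPM in mature nuclei, 0.947 to 11.5 CPM in the cDC2 gate and 1.03 to 7.39 CPM in no-marker nuclei at D5, and 3 of the 6 met the rule again. Zfp366 was the gene with the most mature DC peaks within 100 kb (6), and 18 genes had 5. Among these, RNA of Anxa3, an annexin, was at 213 CPM in mature and 10.5 CPM in no-marker nuclei at D5, that of Mical3, an actin-oxidising enzyme, at 64.7 and 13.7 CPM, Rassf3 at 248 and 119 CPM and Tnfsf4, the ligand of the T cell receptor OX40, at 28.3 and 1.53 CPM. Gm42601, which shares regions with Anxa3, was at 36.6 and 1.87 CPM. Smarce1 and Tns4, which share the Ccr7 regions, were at 141 and 89.3 CPM and at 2.69 and 3.27 CPM. Zfp366 itself was at 189 and 86.3 CPM.

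RNA of the nearest genes was then compared at D5. The regions had 930 different nearest genes, and 716 of these had 10 or more UMIs and no part in the gate. Of the 716, 206 (28.8%) were 2-fold or more higher in mature than no-marker nuclei and 13 (1.82%) lower, against 5.10% and 3.30% of all genes. The median log2 ratio was 0.30 for them and -0.11 for all genes. In the shares by distance that follow, a gene nearest to several regions counts in each class it falls in. Where the region lay within 1 kb of the start, 22 of 36 genes were higher (61.1%), and at 1 to 10 kb 80 of 250 (32.0%), at 10 to 50 kb 107 of 370 (28.9%), at 50 to 100 kb 30 of 100 (30%) and beyond 100 kb 9 of 38 (23.7%). The share also climbed with the number of mature DC peaks within 100 kb of a start site, from 3.37% of 14274 genes with 0 to 11.1% of 1879 with 1, 24.7% of 373 with 2, 42.9% of 119 with 3 and 40.8% of 49 with 4 or more. Genes nearest to regions that met the rule again at D5 were higher in 34.3% and those nearest to the other regions in 25.8%. A gene with regions of both kinds counts in both shares. Against the cDC2 gate in place of the no-marker nuclei, 220 of 641 nearest genes (34.3%) were higher, where 8.31% of all genes were.

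**Figure D5:**
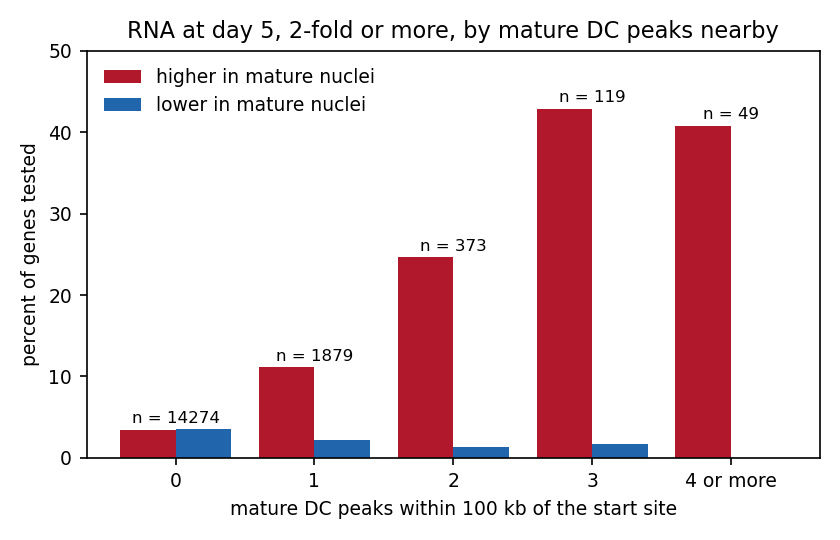
Percent of genes whose RNA was 2-fold or more higher (red) or lower (blue) in mature than no-marker nuclei at D5 (y axis), by the number of mature DC peaks within 100 kb of the gene's start site (x axis), with the number of genes compared above the bars. The share of higher genes is 3.37% with 0 such peaks and 42.9% with 3.

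Genes by role were read from lists that share some genes, against the 10.4% of all genes that had a mature DC peak within 100 kb. Of 30 mature DC genes 23 (76.7%) had one. RNA was higher in 20 of the 23 with a region nearby and in 5 of the 6 without that could be compared. One of these, Tbc1d4, had its closest mature DC peak 119567 bases away, just past the limit. Samsn1, an adaptor of immune receptors, had a region 992 bases from its start with 9.22 CPM in mature and 2.50 CPM in no-marker nuclei. Ankrd33b, at 1187 bases, had 15.5 and 2.60 CPM, and its RNA was at 56.4 and 2.63 CPM.

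For the NFkB pathway 9 of 20 genes (45.0%) had a mature DC peak within 100 kb, and RNA of 6 of the 20 was 2-fold or more higher while 0 were lower. It was higher in 2 of the 9 with a region nearby and in 4 of the 11 without. Relb, the NFkB subunit of the alternative pathway, had a region 5627 bases from its start with 18.4 CPM (16.0 to 21.2) in mature, 4.54 CPM in cDC2, 1.501 CPM in cDC1 and 2.42 CPM in no-marker nuclei, and its RNA was at 428 and 75.4 CPM in mature and no-marker nuclei. Traf1, a signalling adaptor of the tumour necrosis factor receptor family, had a region with 17.3 CPM in mature, 11.6 CPM in cDC2 and 6.29 CPM in no-marker nuclei and RNA at 671 and 239 CPM. Nfkbie, an inhibitor of NFkB, had a region 11229 bases away with 17.1 and 3.18 CPM, and its RNA was at 149 and 96.7 CPM, short of 2-fold. Birc3, an inhibitor of apoptosis, had 7.54 and 1.74 CPM with RNA at 289 and 173 CPM, and Cflar, which blocks death receptor signals, had 14.6 and 7.09 CPM with RNA at 178 and 89.1 CPM. Tnip3, a brake on NFkB, had 2.89 and 0.627 CPM at its closest region, but its RNA was at 379 and 383 CPM, with a log2 interval of -0.07 to 0.04. Rel, Nfkb2, Traf3 and Map3k14 were higher in RNA and had no mature DC peak within 100 kb.

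Among 24 T cell ligand and cytokine genes, 11 (45.8%) had a mature DC peak nearby, and RNA was higher in 8 of these 11 and in 3 of the 12 without one that could be compared. Cd274, which encodes the inhibitory ligand PD-L1, had a region 2685 bases from its start with 16.0 CPM in mature, 8.39 CPM in cDC2, 5.00 CPM in cDC1 and 5.10 CPM in no-marker nuclei and RNA at 222 and 41.7 CPM in mature and no-marker nuclei. Ccl22, a chemokine that draws regulatory T cells, had a region with 13.0 and 5.13 CPM and RNA at 307 and 43.7 CPM. Il12b, a subunit of interleukins that polarise T cells, had a region 17232 bases away with 20.02 CPM in mature, 10.7 CPM in pDC, 8.20 CPM in cDC1 and 3.72 CPM in cDC2 nuclei, and RNA at 312 and 8.06 CPM. Il15ra, which presents interleukin-15 to lymphocytes, had 3 regions, of which 1 had 6.98 CPM in mature and 0.407 CPM in no-marker nuclei, and RNA at 39.9 and 3.96 CPM. That region lies inside the gene Il2ra, 13432 bases from the Il15ra start, as does another of the 3, at 14398 bases. Ebi3, a subunit of other interleukins of this family, had a region with 7.59 and 1.90 CPM and RNA at 41.0 and 32.8 CPM. Genes for the costimulators Cd86 and Cd40 had no mature DC peak within 100 kb.

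Of 20 migration and cytoskeleton genes 8 (40%) had a mature DC peak nearby, with the gate genes Ccr7, Fscn1 and Cacnb3 among them. Among the 16 that could be compared, 8 were higher in RNA, 3 of the 5 with a region nearby and 5 of the 11 without. Arpin, an inhibitor of actin branching, had a region 921 bases from its start with 9.13 CPM in mature, 5.05 CPM in cDC1 and 2.46 CPM in no-marker nuclei, and RNA at 11.01 and 0.404 CPM. Marcks, which links membranes to actin, had 5.45 and 1.07 CPM with RNA at 897 and 337 CPM. Arhgap22, which acts on the small GTPase Rac1, had a region with 7.50 and 1.37 CPM, yet its RNA was at 85.2 and 78.7 CPM.

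Within mature nuclei the regions were compared between the days, with the reservation that D0 chose them for being high there, which alone favours lower values at D5. The median log2 ratio of D5 over D0 was -0.28, with no error that 1 library per day could give, against -0.06 for all shared peaks with 30 or more cut sites in mature nuclei at D0. Beyond the counting interval 223 (19.6%) were lower and 10 (0.880%) higher at D5, against 8.36% and 5.06% of those peaks. In no-marker nuclei the median over the same regions was 0.09 and in the cDC2 gate -0.19. The day, the library, the makeup of the gate and the choice at D0 cannot be told apart in this comparison.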

How the data were processed

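Nuclei of sorted liver cells were profiled for RNA and chromatin accessibility in 1 library per day. Per the file headers, the authors made the RNA tables with Cell Ranger 6.0.2, and the submitters' processing notes name Cell Ranger ARC 2.0.2 and the build mm10. The deposited values are raw counts, UMIs per gene and cut sites per peak, with peaks called in each library alone. The deposited counts were not normalised. Depth was 44496348 UMIs and 215252467 cut sites in 16260 called barcodes at D0, and 94374499 and 239039209 in 27873 at D5, where layers were joined by identical gene counts. No doublet caller was run.

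Sums over gates were scaled to CPM of all UMIs or all cut sites in peaks. A gate of another type needed 4 or more UMIs of its markers and 3 times every other type's, with at most 1 UMI of the mature genes. D5 counts of a region are those of overlapping D5 peaks (1 base or more). Cut sites were divided by 2 for exact Poisson, binomial or conditional binomial intervals, which cover counting error only. Intervals of shares and medians of regions are binomial and run over regions. Distances run to the nearer end of the annotated range of starts, since 16.6% of genes have a range over 1 kb. No genome was used, so the planned motif search at peak centres was replaced by RefSeq promoter windows. Regions and genes were named by rank in accessibility or ratio, nearness to a gate gene, closeness to list genes (up to 6 per list) and number of regions nearby, beside examples of regions that differ between mature types, chosen after their values were seen. The regions and lists were chosen with earlier results of these data known. One item named by these rules is not reported here. Steps were tested on simulated data. Python 3.11.15, numpy 2.4.6, scipy 1.17.1 and pandas 2.3.3 were used.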

Additional observations from a re-analysis of the deposited data

How the results depend on the processing

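No paired analysis was possible because each day is 1 library, and no replicate could be left out. Of 60 recomputed values 43 stayed within a factor of 1.5 (counts) or within the interval of the reported value (medians and shares), a tolerance wider for counts: list genes with a region nearby, for example, were 27 within 25 kb against 40 within 100 kb. Only medians of log2 ratios could change direction, and 0 of them did. Leaving out nuclei with over 10% mitochondrial UMIs changed none of the values it was applied to, and these count among the 43. The number of mature DC peaks (1149) followed the rule's settings, with 754 at a pseudocount of 1, 2962 at a fold of 2, 575 at a fold of 4 and 596 at 60 or more cut sites. Regions meeting the rule again at D5 (575) then numbered 344, 1425, 298 and 300, that is 46.1%, 48.6%, 52.6% and 50.5%. The median D5 ratio (1.70) was 1.64 without mature nuclei holding 2 or more UMIs of another type and 1.76 against cDC1 and cDC2 nuclei only. The ratio of D5 over D0 (-0.28) was -0.22 with a size factor from shared peaks, -0.21 for regions with 60 or more cut sites in each library, -0.34 without nuclei of mixed markers and -0.35 with 6 or more marker UMIs. Nearest genes with higher RNA (206) were 99 of 281 within 10 kb, and a size factor over genes, with a shift of -0.13 on the log2 scale taken out, gave 228 (31.8%, where 6.09% of all genes were higher). Near a start site lay 2.96% within 0.5 kb and 18.5% within 5 kb. The cause of these moves is the setting itself for rule, distance and size factor, and was not tested otherwise. The search for motifs over whole peaks was not run. The promoter windows, the gate subsets (523 regions without the nonclassical monocyte gate, 655 with cDC1 and cDC2 only, against 455) and the RNA comparison with the cDC2 gate were chosen after seeing the data. Few cut sites limit single values: the Apol7c region at 1.96 CPM had an interval of 1.21 to 2.99 CPM.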
